A study of Rattus norvegicus with 11 samples.

Results

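Granins and prohormone processing enzymes are proteins of the secretory granule, and their transcripts were followed here in islets of adult rat daughters. The members were 10 genes taken by symbol, each read from its brightest probe by mean level (Chga, Chgb, Scg2, Scg3, Scg5, Pcsk1, Pcsk2, Pcsk1n, Cpe and Resp18). Of these 10, 8 had a probe with a single gene symbol, among 14324 genes measured in all, and each of the 8 had 1 such probe. Pcsk1 and Cpe were not analysed here. Islet RNA was measured on 11 one-colour arrays, 5 from daughters of fathers fed high-fat pellets (HFD-father, 43% as fat) and 6 from daughters of fathers fed standard chow (chow-father, 9% as fat). Every rat was of the Sprague-Dawley strain, and no group carried a genetic change or a drug. Matings took place when the fathers were 15 weeks old, with females kept on chow, all daughters were weaned onto chow at 3 weeks, and islets were taken at 13 weeks. Per the series' design text the HFD fathers were heavier, glucose intolerant and insulin resistant, while their daughters were glucose intolerant at an unchanged body weight. The labels do not say how many rats, litters or fathers stand behind an array, so p-values measure only the spread between these samples, which may be technical. The sample numbers form a first set of 8 arrays, 4 per group, and a later set of 3 with 1 HFD-father and 2 chow-father arrays. Arrays give no read depth, and their number limits the precision.

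Endocrine cells store peptide hormones in dense-core granules, in which acidic proteins of the granin family condense with the hormone. Prohormones are cut there at pairs of basic residues by the convertases encoded by Pcsk1 and Pcsk2, and the exposed basic residues are then trimmed by carboxypeptidase E, the product of Cpe. In beta cells these steps turn proinsulin into insulin and C-peptide, and in alpha cells the Pcsk2 product releases glucagon from proglucagon. Several granin-like proteins act on the convertases: the Scg5 product, also called 7B2, is needed for the Pcsk2 enzyme to mature and also inhibits it, and the Pcsk1n product, proSAAS, inhibits the Pcsk1 enzyme. The comparison asks whether a father's diet is reflected in the transcripts of this machinery in his daughters.

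No member passed the test between the diets of the fathers, and all 8 members had overlapping groups. By limma on all 27342 probes, 0 of 8 members had an adjusted p under 0.05, against 0% of all genes and 0% of all probes called. At an unadjusted p under 0.05 the count was 0 of 8 members, against 8.25% of all genes, and the lowest unadjusted limma p was 0.284, for Chga. Groups without overlap occurred in 0 of 8 members, against 0.887% of all genes. Of the 8 differences, given throughout as HFD-father minus chow-father, 4 were above 0 and 4 below, with a median of -0.02 on the log2 scale beside 0.004 over all genes. The 95% intervals of the 8 members together reached from -0.39 to 0.18, which is 0.765-fold to 1.13-fold.

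Promoter windows are printed because the members moved together over the arrays, as described further on, and the 4 shown are those that hold the core of a cAMP response element, a motif picked after the windows were seen. They are the 250 bases before the annotated start of Scg2, Scg3, Pcsk2 and Scg5 in RefSeq (build GRCr8), written 5′ to 3′ on the gene's strand. Capitals mark TGACG or its reverse complement CGTCA, that core, and in Scg2 both overlap in the full palindrome TGACGTCA.
Scg2 (chr9:88256867-88257116, minus strand): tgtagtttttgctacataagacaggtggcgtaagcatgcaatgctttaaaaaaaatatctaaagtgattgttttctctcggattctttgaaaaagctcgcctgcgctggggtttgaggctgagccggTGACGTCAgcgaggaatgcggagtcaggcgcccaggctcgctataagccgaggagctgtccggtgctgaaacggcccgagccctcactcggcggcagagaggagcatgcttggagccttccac
Scg3 (chr8:85322485-85322734, minus strand): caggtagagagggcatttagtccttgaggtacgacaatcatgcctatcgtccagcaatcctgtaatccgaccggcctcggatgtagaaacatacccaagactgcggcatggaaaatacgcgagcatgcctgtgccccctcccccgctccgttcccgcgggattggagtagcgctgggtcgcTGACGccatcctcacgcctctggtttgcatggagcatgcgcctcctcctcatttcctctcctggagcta
Pcsk2 (chr3:151333688-151333937, plus strand): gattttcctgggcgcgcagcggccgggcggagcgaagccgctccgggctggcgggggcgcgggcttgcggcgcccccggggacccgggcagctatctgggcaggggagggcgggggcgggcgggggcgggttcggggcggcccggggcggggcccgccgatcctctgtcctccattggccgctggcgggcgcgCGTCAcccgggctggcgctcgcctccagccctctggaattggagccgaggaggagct
Scg5 (chr3:121042796-121043045, minus strand): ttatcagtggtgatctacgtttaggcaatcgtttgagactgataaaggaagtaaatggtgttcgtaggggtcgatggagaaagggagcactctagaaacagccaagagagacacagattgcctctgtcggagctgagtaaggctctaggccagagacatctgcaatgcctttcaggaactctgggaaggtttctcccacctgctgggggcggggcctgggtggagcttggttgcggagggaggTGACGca
Windows were found for 7 of the 8 measured members, and the core lay in these 4 of the 7. Those of Chgb, Pcsk1n and Resp18 held no core, while Resp18 gave r = 0.91 with Pcsk2. Whether the core goes with the joint movement was not tested. Over both strands it occurred in 18.2% of all 33469 windows of this length. The full palindrome stood 123 to 116 bases before the start of Scg2, and it occurred in 1.59% of all windows. A letter match is a description and not a site of binding.

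Some arrays stood apart, and the members followed them. HFD-father 1 was the lowest HFD-father array for 8 of 8 members and the lowest of all 11 arrays for 5 of them. Its lymphocyte marker mean was 6.24 on the log2 scale (7 of 9 listed markers measured), against 4.98 to 5.27 in the other HFD-father arrays and 4.92 to 5.16 in chow-father arrays. It was also the highest of all 11 arrays for the ductal marker mean, 7.47 against 6.01 to 6.72 in the other HFD-father and 5.76 to 7.27 in chow-father arrays (3 of 7 markers measured). Its endothelial marker mean was 8.42, against 7.98 to 8.23 in the other HFD-father and 7.92 to 8.18 in chow-father arrays (6 of 8 measured), and its macrophage marker mean was 6.16, against 5.52 to 6.08 and 5.41 to 6.14 in the same groups (7 of 7 measured). The part of these cell types in the member values was not tested. The highest chow-father value was in chow-father 3 or 4 for 8 of 8 members. The same arrays stood at the ends of the acinar marker mean, the average over 19 of 20 listed genes of the exocrine pancreas. That mean ranged from 12.42 to 12.98 in HFD-father and from 11.65 to 12.98 in chow-father arrays, and it was highest in HFD-father 1 and chow-father 1 and lowest in chow-father 4 and chow-father 3. Of the 19 acinar markers 17 were higher in HFD-father arrays, against 51.9% of all genes. Their median difference was 0.19, and 0 passed the test. Chow-father 4, at 11.65, lay apart from the other chow-father arrays, whose acinar means of 12.22 to 12.98 covered the HFD-father range. It pulls down the chow-father average of 12.49, beside 12.66 in HFD-father arrays. The count of 17 and the median of 0.19 include this array and were not computed without it. Beta cell markers, 7 of 8 measured, averaged 12.45 to 12.67 in HFD-father and 12.49 to 12.81 in chow-father arrays. In whole islets fewer cells of a type and less RNA per cell cannot be told apart.

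Chga encodes chromogranin A, an acidic granule protein that promotes granule formation and is the precursor of pancreastatin. Its log2 values were 10.97, 11.40, 11.22, 11.09 and 11.24 in HFD-father replicates 1 to 5, against a lowest value of 11.01, a median of 11.27 and a highest value of 11.77 in the 6 chow-father arrays. The groups overlapped, and the highest value was that of chow-father 4. Chga averaged 11.18 ± 0.16 (SD, n = 5) in HFD-father and 11.32 ± 0.26 (SD, n = 6) in chow-father arrays. The difference was -0.13 ± 0.12 (SE) on the log2 scale, with a 95% interval from -0.39 to 0.12 (adjusted p = 0.758, limma). It was -0.04 without chow-father 4 and -0.08 without HFD-father 1. Within groups Chga had an SD of 0.219, the widest among the members and wider than that of 89.6% of all genes, whose median was 0.119.

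Chgb encodes chromogranin B, a related granin of the granule core. Its log2 values were 10.03, 10.19, 10.16, 10.15 and 10.34 in HFD-father replicates 1 to 5, against a lowest value of 10.02, a median of 10.12 and a highest value of 10.33 in the 6 chow-father arrays. The highest and lowest arrays of each group lay at almost the same levels. The difference was 0.04 ± 0.07 (SE) on the log2 scale, with a 95% interval from -0.11 to 0.18 (adjusted p = 0.899, limma). Within the first 8 sample numbers it was -0.05, and within the later 3 it was 0.28, where only HFD-father 5 stands against 2 chow-father arrays.

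Scg2 encodes secretogranin II, the precursor of secretoneurin, and carries the full palindrome printed above. Its log2 values were 12.70, 13.01, 13.07, 12.91 and 12.91 in HFD-father replicates 1 to 5, against a lowest value of 12.72, a median of 12.97 and a highest value of 13.17 in the 6 chow-father arrays. HFD-father 1 and chow-father 1 were the low arrays, and the remaining values of both groups ran together. The difference was -0.06 ± 0.08 (SE) on the log2 scale, with a 95% interval from -0.24 to 0.12 (adjusted p = 0.86, limma), and it was 0.00 without HFD-father 1. Scg3 encodes secretogranin III, which binds chromogranin A at the granule membrane. Its log2 values were 10.90, 11.16, 11.07, 11.01 and 11.04 in HFD-father replicates 1 to 5, against a lowest value of 10.87, a median of 11.02 and a highest value of 11.13 in the 6 chow-father arrays. The HFD-father range ran slightly above the chow-father range at both ends, with wide overlap. The difference was 0.02 ± 0.06 (SE) on the log2 scale, with a 95% interval from -0.11 to 0.15 (adjusted p = 0.94, limma). It was 0.02 within each of the sets of sample numbers.

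**Figure D1:**
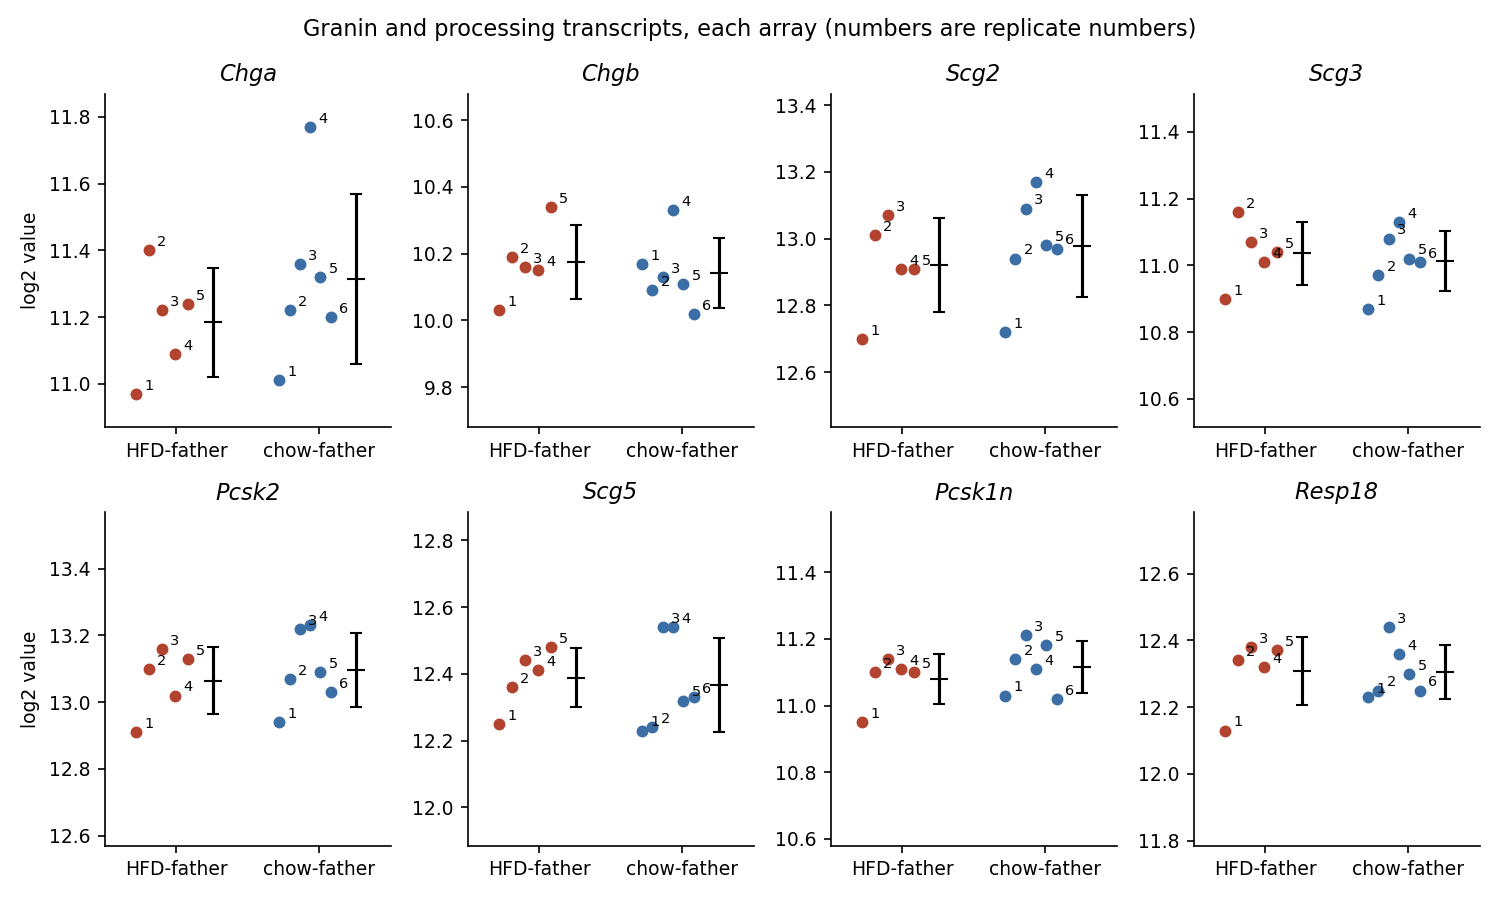
Log2 values of the 8 measured members in each array (vertical axis, 1 log2 unit tall in every panel), with HFD-father arrays left and chow-father arrays right. Points carry the replicate number, and bars beside them give the mean ± SD (n = 5 and n = 6). The groups overlap in all 8 panels, and HFD-father 1 is the lowest HFD-father point in each.

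Pcsk2, the convertase that acts on both proinsulin and proglucagon, is the only convertase among the measured members. Its log2 values were 12.91, 13.10, 13.16, 13.02 and 13.13 in HFD-father replicates 1 to 5, against a lowest value of 12.94, a median of 13.08 and a highest value of 13.23 in the 6 chow-father arrays. Chow-father 3 and 4 were the high arrays, and HFD-father 1 was the lowest. Pcsk2 averaged 13.06 ± 0.10 (SD, n = 5) in HFD-father and 13.10 ± 0.11 (SD, n = 6) in chow-father arrays. The difference was -0.03 ± 0.07 (SE) on the log2 scale, with a 95% interval from -0.18 to 0.11 (adjusted p = 0.912, limma), a ratio of 0.978 with bounds of 0.886 and 1.08. The difference was -0.07 within the first 8 sample numbers and 0.07 within the later 3.

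Scg5, the partner of the Pcsk2 enzyme, had log2 values of 12.25, 12.36, 12.44, 12.41 and 12.48 in HFD-father replicates 1 to 5, against a lowest value of 12.23, a median of 12.32 and a highest value of 12.54 in the 6 chow-father arrays. The chow-father arrays fell at the ends of the range, with chow-father 3 and 4 above and chow-father 1 and 2 below every HFD-father array. The difference was 0.02 ± 0.07 (SE) on the log2 scale, with a 95% interval from -0.13 to 0.18 (adjusted p = 0.945, limma). Within the first 8 sample numbers it was -0.02 and within the later 3 it was 0.16.

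Pcsk1n, which encodes the inhibitor of the Pcsk1 enzyme, had log2 values of 10.95, 11.10, 11.14, 11.11 and 11.10 in HFD-father replicates 1 to 5, against a lowest value of 11.02, a median of 11.13 and a highest value of 11.21 in the 6 chow-father arrays. Apart from HFD-father 1 the HFD-father arrays lay within 11.10 to 11.14, inside the chow-father range. The difference was -0.04 ± 0.06 (SE) on the log2 scale, with a 95% interval from -0.15 to 0.08 (adjusted p = 0.871, limma), and it was 0.00 without HFD-father 1. Its within-group SD of 0.077 was the narrowest among the members.

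Resp18 encodes a regulated endocrine-specific protein of the secretory pathway that resembles the lumenal part of the granule protein IA-2. Its log2 values were 12.13, 12.34, 12.38, 12.32 and 12.37 in HFD-father replicates 1 to 5, against a lowest value of 12.23, a median of 12.28 and a highest value of 12.44 in the 6 chow-father arrays. The HFD-father arrays lay inside the chow-father range except for HFD-father 1. The difference was 0.00 ± 0.06 (SE) on the log2 scale, with a 95% interval from -0.13 to 0.13 (adjusted p = 0.996, limma), and it was 0.05 without HFD-father 1. Over the 8 members the differences ran from -0.08 to 0.07 without HFD-father 1, from -0.17 to 0.02 within the first 8 sample numbers and from -0.07 to 0.28 within the later 3.

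**Figure D2:**
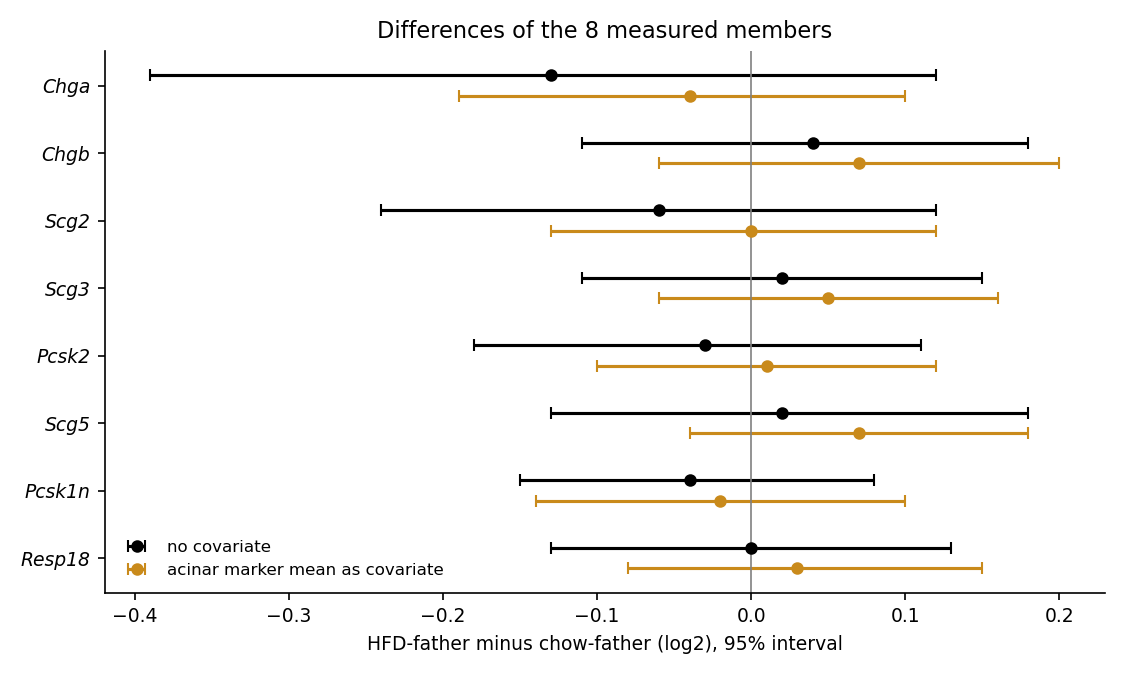
Difference of each member, as log2 value in HFD-father minus that in chow-father arrays (horizontal axis), with its 95% interval from limma, without a covariate (black) and with the acinar marker mean of each array as a covariate (orange). All 16 intervals include 0.

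The members rose and fell together from array to array within the groups. Correlations were computed between the deviations of each member from its group means over 11 arrays, for 28 pairs, with 100000 permutations and Benjamini-Hochberg adjustment over the 28. All 28 Pearson coefficients were above 0, from 0.35 to 0.94 with a median of 0.76. Of the pairs, 19 had an adjusted permutation p under 0.05 by Pearson's r and 15 by Spearman's rho. Group means had been subtracted, and values were centred within each set of sample numbers. The permutations do not allow for this, so their p-values can be too small. By Pearson's r, Chga passed only narrowly with Resp18 (adjusted permutation p = 0.0449) and with Chgb (adjusted permutation p = 0.0448). The share of all gene pairs that pass was not computed, so no count of pairs is shown to be particular to the members. Scg2 and Scg3 gave r = 0.94 (adjusted permutation p = 0.00119) and rho = 0.90 (adjusted permutation p = 0.00241). Pcsk2 and its partner Scg5 gave r = 0.88 (adjusted permutation p = 0.00285) and rho = 0.88 (adjusted permutation p = 0.00369). Pcsk2 and Resp18 gave r = 0.91, whose unadjusted permutation p of 1e-05 is the smallest that these permutations can give (adjusted permutation p = 0.00028), and rho = 0.92 (adjusted permutation p = 0.00241).

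Every pair that missed the threshold held Chgb or Pcsk1n. The 15 pairs among the other 6 members passed by both coefficients, with r from 0.65 to 0.94. Of the 13 pairs with Chgb or Pcsk1n, 4 passed by Pearson's r and 0 by Spearman's rho. Chgb and Pcsk1n themselves gave r = 0.35 (adjusted permutation p = 0.296) and rho = 0.07 (adjusted permutation p = 0.839). This split of the members was made after the coefficients were seen. Without the pair of arrays farthest from the median of the first gene, the 15 coefficients ran from 0.50 (Chga and Scg5) to 0.92, and within the first 8 sample numbers from 0.64 to 0.98. Over all 28 pairs the median r was 0.66 without those arrays and 0.82 within the first 8 sample numbers. It was 0.51 without chow-father 1, chow-father 4 and HFD-father 1 together, 0.67 without HFD-father 1 alone and 0.77 without chow-father 1 and chow-father 4.

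**Figure D3:**
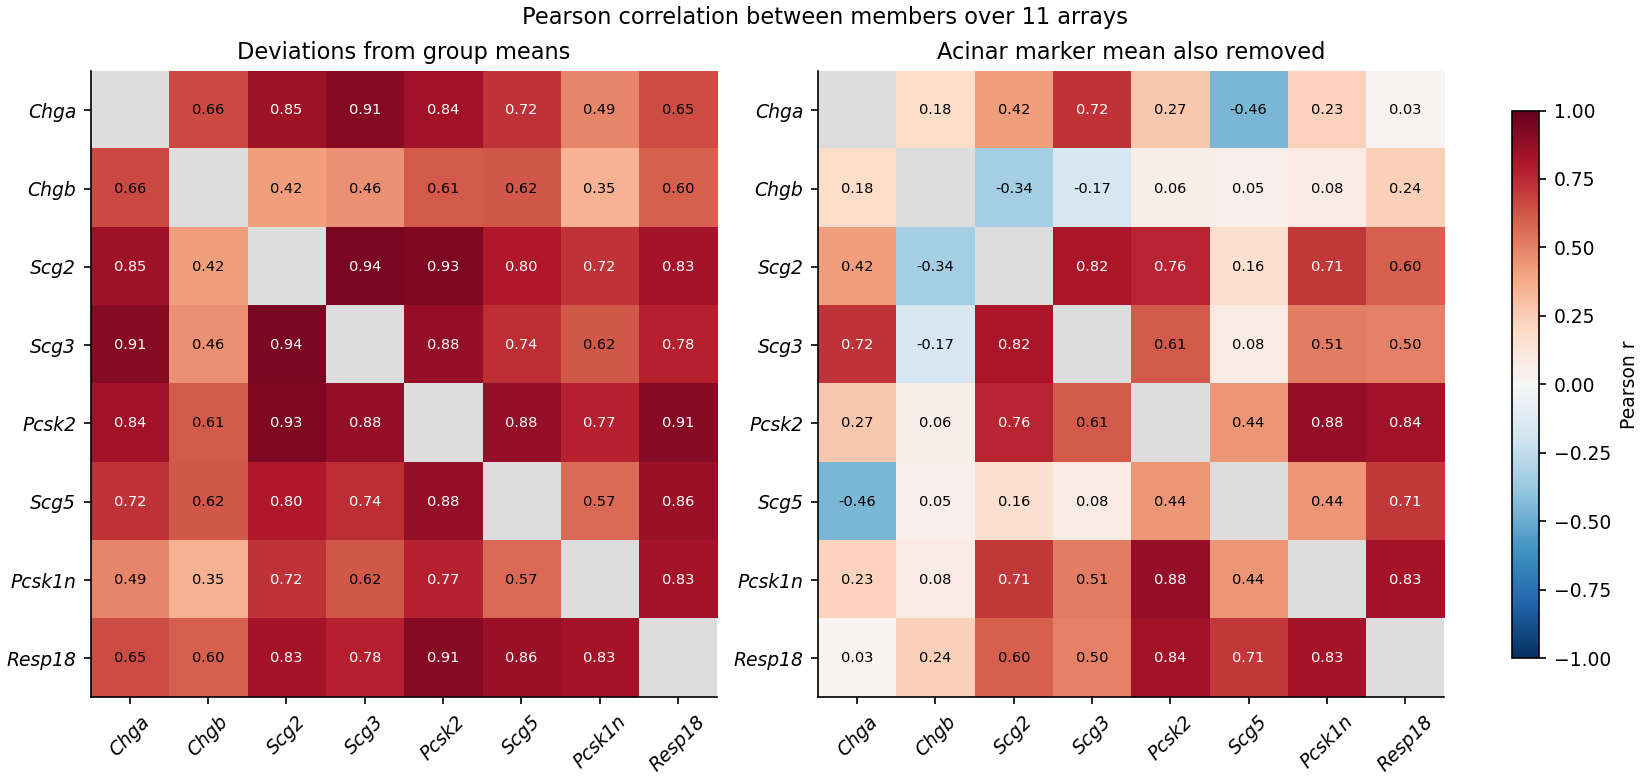
Pearson correlation between members over 11 arrays, for deviations from group means (left) and after the acinar marker mean was also removed by least squares (right). The colour scale runs from -1 to 1, and the median of the 28 pairs is 0.76 on the left and 0.43 on the right.

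The members were low where acinar markers were high. Over the values of all 11 arrays, without subtracting group means, the acinar marker mean gave a Pearson's r below 0 with 8 of 8 members, and 6 of the 8 passed by Pearson's r and by Spearman's rho after adjustment over the 8 relations (100000 permutations). Pcsk2 gave r = -0.88 (adjusted permutation p = 0.00064) and rho = -0.93 (adjusted permutation p = 0.0008). Scg5 gave r = -0.85 (adjusted permutation p = 0.00064) and rho = -0.88 (adjusted permutation p = 0.00276). Chga gave r = -0.90 (adjusted permutation p = 0.00118) and rho = -0.73 (adjusted permutation p = 0.0185), and r was -0.69 without chow-father 3 and 4, the arrays farthest from the median acinar level. For Pcsk2 and Scg5 r was -0.89 and -0.83 without those arrays. Chgb (r = -0.60, adjusted permutation p = 0.062, rho = -0.35, adjusted permutation p = 0.284) and Pcsk1n (r = -0.47, adjusted permutation p = 0.144, rho = -0.53, adjusted permutation p = 0.114) did not pass. The limit given above for the permutation p-values of the pairs holds for deviations used here too. With deviations from group means on both sides, a setting added after the data were seen, 7 of 8 passed by Pearson's r and 6 of 8 by Spearman's rho. There Chgb gave r = -0.67 (adjusted permutation p = 0.0301) and rho = -0.54 (adjusted permutation p = 0.106), and Pcsk1n gave r = -0.44 (adjusted permutation p = 0.179) and rho = -0.45 (adjusted permutation p = 0.171). Without that subtraction, within the first 8 sample numbers the 8 coefficients ran from -0.91 to -0.53. How many of all genes pass with the acinar marker mean was not computed, so these counts are not shown to be particular to the members.

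The acinar marker mean shared 81.7% of the within-group variance of Scg5, 80.4% of that of Chga, 76.2% of that of Pcsk2 and 70.2% of that of Scg2, but 19.2% of that of Pcsk1n. With this mean as a covariate the standard error was smaller for 8 of 8 members, from 0.05 to 0.07 against 0.06 to 0.12 without it. The differences then ran from -0.04 for Chga to 0.07 for Chgb and Scg5. None of the 8 passed (lowest adjusted p = 0.598 with limma, for Scg5), where 0% of all probes were called. With the acinar mean removed, the median r between members was 0.43, 25 of 28 coefficients were above 0, and Pcsk1n with Pcsk2 gave the highest, 0.88.

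**Figure D4:**
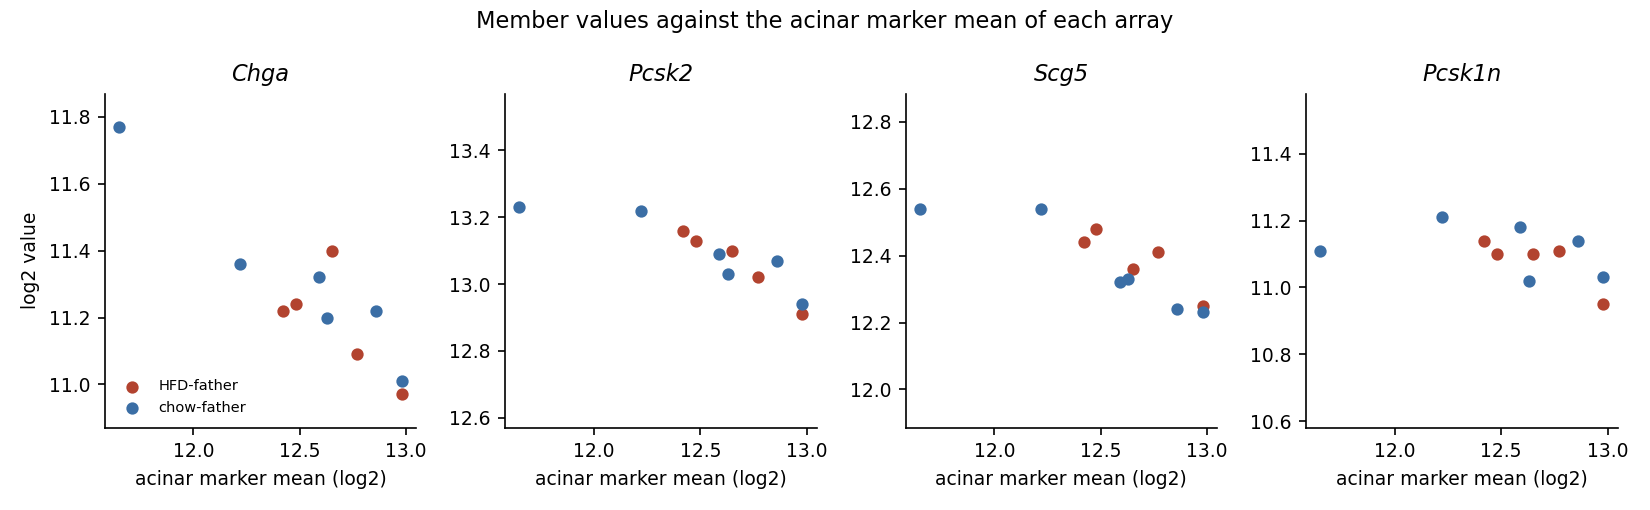
Log2 values of Chga, Pcsk2, Scg5 and Pcsk1n (vertical axes, 1 log2 unit tall) against the acinar marker mean of the same array (horizontal axis, log2), for HFD-father (red) and chow-father (blue) arrays. Values fall with the acinar marker mean for Chga (r = -0.90), Pcsk2 (r = -0.88) and Scg5 (r = -0.85), and less steadily for Pcsk1n (r = -0.47).

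Outside the granule lists, the genes whose values were most like the mean of the standardized members over 11 arrays were Cyp2b15 (r = 0.95), Lrp2 (r = 0.94), Lpgat1 (r = 0.94), Por (r = 0.94), Ppm1e (r = 0.93) and Zcchc17 (r = 0.93). They were chosen for these coefficients from all genes, so no p is given. Their own coefficients with the acinar marker mean ran from -0.84 for Ppm1e to -0.78 for Lrp2 and Zcchc17.

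The other genes of the granule pathway were described in 7 lists, of which 96 genes were measured and 10 were not analysed here. By limma 0 of the 96 passed the threshold, and 4 had an unadjusted p under 0.05, beside 8.25% of all genes. Among 6 measured proprotein convertases other than Pcsk2, 2 had differences above 0 and 4 below, with a median of -0.06. Pcsk4, a convertase known from germ cells, averaged 5.70 ± 0.13 (SD, n = 5) in HFD-father and 5.88 ± 0.08 (SD, n = 6) in chow-father arrays. Both means lay below the lowest array median of 6.137, a low signal. The Pcsk4 difference of -0.18 ± 0.06 (SE) did not pass (adjusted p = 0.466, limma). It was -0.17 within the first 8 sample numbers and -0.23 within the later 3. Furin, the widely expressed convertase of the Golgi, differed by 0.05, Pcsk5 by -0.08, Pcsk6 by -0.08, Pcsk7 by -0.04 and Mbtps1, which cleaves the SREBP transcription factors, by 0.00. The means of Pcsk5 (5.55 in HFD-father, 5.64 in chow-father) and Pcsk6 (5.46 and 5.54) also lay below the lowest array median.

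Of 11 carboxypeptidases and peptide-modifying enzymes, 3 had differences above 0 and 8 below, with a median of -0.03 and 0 past the threshold (lowest adjusted p = 0.72, limma). Pam, the enzyme that amidates peptide ends, averaged 12.43 ± 0.11 (SD, n = 5) in HFD-father and 12.44 ± 0.06 (SD, n = 6) in chow-father arrays, a difference of -0.01. Qpct, a glutaminyl cyclase, differed by -0.12, its relative Qpctl by -0.03, and the lysosomal carboxypeptidase gene Prcp by -0.12. The carboxypeptidase genes Cpd, Cpm, Cpn1, Cpz, Cpxm1 and Cpxm2 differed by 0.01, -0.11, 0.02, -0.05, -0.03 and 0.08, and the dipeptidyl peptidase gene Dpp4 by -0.07. Both group means of Qpct, Cpm, Cpxm1, Cpxm2 and Dpp4 lay below the lowest array median of 6.137, a low signal.

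Among 21 genes of peptide cargo, 7 had differences above 0 and 14 below, with a median of -0.01. Ghrl, the ghrelin gene, differed by -0.41 (adjusted p = 0.316, limma), Gal, the galanin gene, by -0.19, and Tac1, the precursor of substance P, by -0.12. Ghrl averaged 5.86 in HFD-father and 6.26 in chow-father arrays, near the array medians of 6.137 to 6.202. The Gal difference was -0.04 within the first 8 sample numbers and -0.65 within the later 3, and it was -0.11 without chow-father 6 or without HFD-father 5. The probes of Gal and Tac1 lay below the dim probe filter, the 25th percentile of probe means. Of 12 granule membrane proteins, 5 were above 0 and 7 below, with a median of -0.01. Ptprn, which encodes the granule protein IA-2, averaged 10.38 ± 0.11 (SD, n = 5) in HFD-father and 10.21 ± 0.12 (SD, n = 6) in chow-father arrays. The Ptprn difference of 0.17 ± 0.07 (SE) did not pass (adjusted p = 0.498, limma). Syt7, a calcium sensor of exocytosis, differed by -0.04 and Slc30a8, the granule zinc transporter, by -0.05.

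Of 13 genes of granule formation and sorting, 11 had differences above 0, with a median of 0.05 beside 0.004 over all genes and 51.9% of all genes above 0. None of them had an unadjusted p under 0.05. Ica1l differed by 0.12, Vps54, a subunit of the GARP tethering complex, by 0.10 and Eipr1, which interacts with the endosomal EARP complex, by 0.07. The Ica1l means of 5.78 in HFD-father and 5.66 in chow-father arrays lay below the lowest array median. The median was 0.02 within the first 8 sample numbers and 0.02 after quantile normalization. Among 18 subunits and partners of the proton pump that acidifies granules, 11 were above 0 and 7 below, with a median of 0.02. Atp6v1g2 differed by -0.15 (adjusted p = 0.492), Atp6v1d by 0.11 and Atp6v0d1 by 0.07. Of 15 genes of proinsulin folding and exit from the endoplasmic reticulum, 11 were above 0, with a median of 0.02. Sil1, a nucleotide exchange factor for the chaperone Hspa5, differed by 0.12 (adjusted p = 0.545), Dnajc3 by 0.09 and the oxidase gene Ero1a by -0.11.

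**Figure D5:**
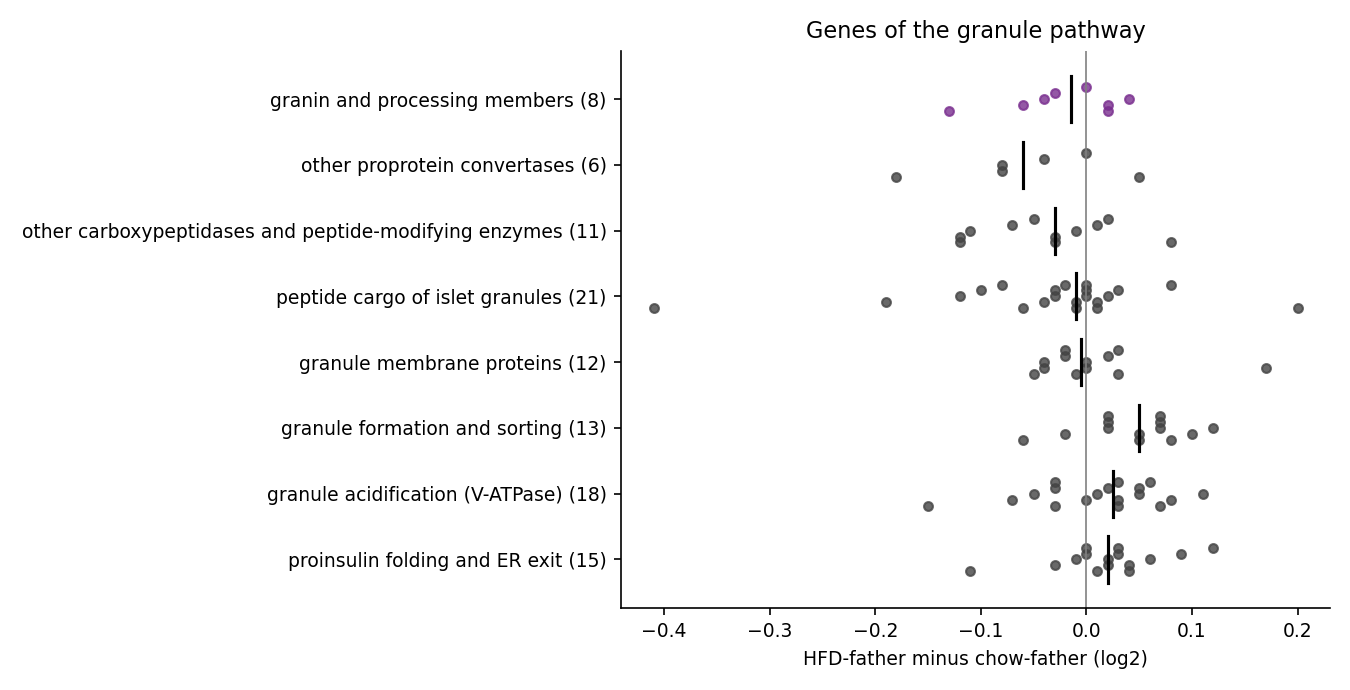
Difference of each measured gene, as log2 value in HFD-father minus that in chow-father arrays (horizontal axis), for the members (purple) and 7 further lists of the granule pathway (grey), with the number of genes in brackets and the list median as a black line. Points of the members lie between -0.13 and 0.04, and list medians between -0.06 and 0.05.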

How the data were processed

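Gene-level log2 values of a one-colour Affymetrix array were used, deposited after the authors' own normalization between arrays. No header states the log2 scale, which was read from the values, with array medians from 6.137 to 6.202. RMA and MAS5 are named per the submitters' processing notes, with no role or version. Background correction is not given in the sources used here. A second deposited table of exon-level values was not used, since its features could not be paired with genes. The sample numbers form a first set of 8 and a later set of 3 arrays, and the means of the sets equalled each other in every probe to within 5.83e-05, so values were centred per set before deposit.

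Of 27342 probes, 15097 had 1 gene symbol, 323 several and 11922 were not listed. Symbols were updated through Entrez numbers to RefSeq GRCr8 for 15067 probes. The probe with the highest mean stood for each gene. Groups were compared with limma 3.58.1 in R 4.3.3 (lmFit, eBayes, no covariate, two-sided), with Benjamini-Hochberg adjustment over all probes and a threshold of 0.05. Correlations used 100000 permutations in Python 3.11.15, and figures matplotlib 3.10.9. Members and lists were chosen with earlier results of these data known. The text names the members, all convertases and peptide-modifying enzymes, in each other list the 3 genes of lowest p and the 1 of largest difference, and the 6 genes most like the members. On simulated data for this comparison (27342 probes, centred per set), limma called 78% of 100 probes changed by 0.5 and 93% of 100 changed by 1 on the log2 scale, with 12 false calls. The simulated noise was independent between probes, unlike that of the members, which varied together. Changes as small as the member differences, -0.13 to 0.04, were not simulated, so these shares do not carry over to the members. Alternatives were other normalizations, a dim probe filter, blocks, array weights, a trended prior, an acinar covariate, averaging all probes of a gene, and each array left out.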

Additional observations from a re-analysis of the deposited data

Results flagged for a closer look

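Among 102 groups of values, 6 held an array far from the rest of its group by Dixon's test at the 95% level, which chance gives in about 1 in 20 groups. HFD-father 1 was the lowest HFD-father array for Pcsk1n (10.95, the nearest at 11.10), Resp18 (12.13, the nearest at 12.32), Pam (12.25, the nearest at 12.44) and Ptprn (10.18, the nearest at 10.40). It was also the highest for the lymphocyte marker mean (6.24, the nearest at 5.27). The other value was that of Tac1 in chow-father 3 (4.17, the nearest chow-father array at 3.98).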

How the results depend on the processing

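Over 22 alternative fits 0 members passed the threshold, and 0 probes were called in any of them (limma). The median difference of the members ran from -0.03 to 0.03 over the arrays left out in turn, that of Chga from -0.19 to -0.04, and those of Chgb, Pcsk2 and Scg3, which changed sign, from -0.01 to 0.07, -0.06 to 0.01 and -0.01 to 0.05. Signs also changed for Chgb (-0.05) and Scg5 (-0.02) in the first set alone, and for Pcsk2 (0.01) with the acinar covariate, with or without the set as a block. The member median, -0.02 in the main fit, was 0.02 with the acinar covariate, with or without that block. It was 0.01 with median centring and 0.01 with array weights. In the later set alone, 1 HFD-father against 2 chow-father arrays with no test, signs changed for Pcsk2 (0.07), the member median (0.05), Cpxm1 (0.32), Qpctl (0.12), Qpct (0.09), Pam (0.07), Ero1a (0.04), Pcsk7 (0.03), Prcp (0.02), Cpn1 (-0.02) and Cpd (-0.04). Among other named genes signs changed for Dpp4 (0.06 with the replicate block, 0.05 in the first set), for Cpn1 (-0.01), Cpxm1 (0.02) and Cpd (-0.01) after quantile normalization, for Pam (0.02) with median centring, array weights or the acinar covariate, and for Slc30a8 (0.01) with the same covariate. Left out in turn, the arrays gave -0.22 to 0.06 for Dpp4, -0.14 to 0.04 for Cpxm1, -0.03 to 0.04 for Pam, -0.03 to 0.05 for Cpd and -0.01 to 0.06 for Cpn1. The causes were not tested. The list median of granule formation and sorting was 0.02 in the first set, 0.02 under quantile normalization and 0.08 with median centring, while in the later set that of membrane proteins was 0.10 and that of the proton pump 0.11. The median r between members was 0.43 with the acinar mean removed, 0.67 without HFD-father 1, 0.77 without chow-father 1 and 4, and 0.51 without all 3, where the median r with the acinar mean was -0.59. These removals were chosen after seeing the data. The labels name no pairing by replicate number. Deviations of arrays with the same number correlated from -0.318 to 0.33, which cannot settle pairing because values were centred per set. With the replicate block the Chga difference was -0.15 and 0 members passed.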

Other observations

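Several genes of the granule and folding lists ran with or against the members over the 11 arrays. They are named because their coefficients were the highest or lowest among the list genes, so no p is given. Gcg and Ins2, both hormone genes, gave r = 0.94 each with the mean of the standardized members, and Pam, which amidates peptides, gave r = 0.92. In both groups Gcg averaged 14.04 and Ins2 14.29, near the highest value on any array, 14.354. Whether their signal was saturated was not tested. Pdia3 and P4hb, both protein disulfide isomerase genes, went opposite ways, with r = 0.89 and r = -0.88. The chaperone partner Dnajc3 and nucleobindin gene Nucb2 gave r = -0.80 each, and Prcp gave r = -0.77. With the acinar marker mean P4hb gave r = 0.89 and Dnajc3 r = 0.75, while Pdia3 gave r = -0.68 and Ins2 r = -0.86. The group difference of P4hb was 0.03, with means of 11.22 in HFD-father and 11.19 in chow-father arrays.

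With the acinar marker mean removed, Pcsk2 stayed close to Pcsk1n (r = 0.88) and Resp18 (r = 0.84), and Scg2 to Scg3 (r = 0.82), while Chga and Scg5 ran apart (r = -0.46), as did Chgb and Scg2 (r = -0.34). These coefficients are a description of 11 arrays and were not tested.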
